A study of Mus musculus with 6 samples.

Results

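The growth-arrest genes Gadd45a, Gadd45b and Gadd45g and the p53 pathway genes Trp53, Mdm2, Cdkn1a, Ccng1 and Btg2 were followed in lung endothelial cells (ECs) from mice with breast cancer metastases. All probe sets that the platform annotation gave to 1 of these symbols alone were taken, which yielded 15 of the 45037 probe sets tested, for 7 of the 8 genes. No probe set was matched to Trp53 alone, and it was not analysed here. Gadd45g was picked because its signal was lower after clodronate-liposome treatment, so its values below are a description and carry no p value. The other genes were listed with it by family or pathway, with earlier results of these data known.

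ECs came from 2 groups of NSG mice, each represented by 3 arrays. One group received clodronate-liposomes, which kill the phagocytes that take them up, and the other received control PBS-liposomes. In both groups the mice were 6 to 8 weeks old at injection, carried lung metastases of the lung-tropic human breast cancer cells MDA-MB-231-LM2, injected through the tail vein, and received liposomes on days 14, 16 and 18 before lungs were taken on day 20. NSG mice lack T, B and natural killer cells, so lymphocyte-derived signals were missing from both groups. ECs were sorted as CD31-positive cells after removal of hematopoietic, epithelial, fibroblastic and tumor cells, and clodronate-liposomes act on phagocytes of the whole animal and not only of the lung. Replicates are biological by their labels, which leave the number of mice per array unstated.

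The transcription factor p53 is held at a low level by the ubiquitin ligase MDM2, whose gene is itself a p53 target, and it accumulates after DNA damage and other stress. It then induces genes that stop the cell cycle, among them Cdkn1a, which encodes the CDK inhibitor p21, together with Ccng1 and Btg2. The GADD45 proteins are small stress-induced proteins that bind the kinase MAP3K4, the replication clamp PCNA and the CDK1 complex. Gadd45a is a direct p53 target, whereas Gadd45b and Gadd45g are best known as early response genes to cytokines, and Gadd45b also as a target of NF-kB.

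Within the Gadd45 family, Gadd45g was the member with lower signal after clodronate-liposome treatment, while Gadd45a and Gadd45b gave overlapping groups. Gadd45g, measured by probe set 1453851_a_at, read 9.85, 9.95 and 9.87 in clodronate-liposome ECs, against 11.07, 11.07 and 10.99 in PBS-liposome ECs, in replicate order. These values are log2 signals after robust multiarray averaging (RMA), so a difference of 1 is a doubling. All clodronate-liposome arrays lay below all PBS-liposome arrays, and the replicates of each group were close to each other. Means were 9.89 ± 0.053 in clodronate-liposome and 11.04 ± 0.050 in PBS-liposome ECs (SD, n = 3 each), a log2 difference of -1.16 (SE 0.091), or 2.23-fold lower. This was the 77th lowest difference among the 45037 probe sets. With 1 array left out, the difference stayed between -1.18 and -1.13. The rank and this range describe the fall that Gadd45g was picked for.

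Gadd45a (1449519_at), the p53-responsive member of the family, read 10.79, 10.76 and 10.65 in clodronate-liposome ECs, against 10.43, 10.83 and 10.85 in PBS-liposome ECs. The groups overlapped, and PBS-liposome replicate 1 was the lowest of the 6 arrays. The log2 difference was 0.03 (95% interval -0.28 to 0.34, limma adjusted p = 0.969), and its sign changed with array weights and with clodronate-liposome replicate 1 or PBS-liposome replicate 1 left out.

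Gadd45b was read by 3 probe sets, none of which separated the groups. The brightest, 1420197_at, gave 12.14, 12.51 and 12.01 in clodronate-liposome ECs, against 12.70, 12.62 and 12.19 in PBS-liposome ECs. Its difference of -0.28 had a 95% interval of -0.69 to 0.13 (limma adjusted p = 0.645). The other probe sets did not share its sign throughout, since 1449773_s_at differed by -0.11 and 1450971_at by 0.07. PBS-liposome replicate 3 had the lowest Gadd45b signal of its group in all 3 probe sets, at 12.19, 10.33 and 10.25. Whether Gadd45g differed from its relatives in response was not tested, because Gadd45g was picked on this contrast.

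**Figure D1:**
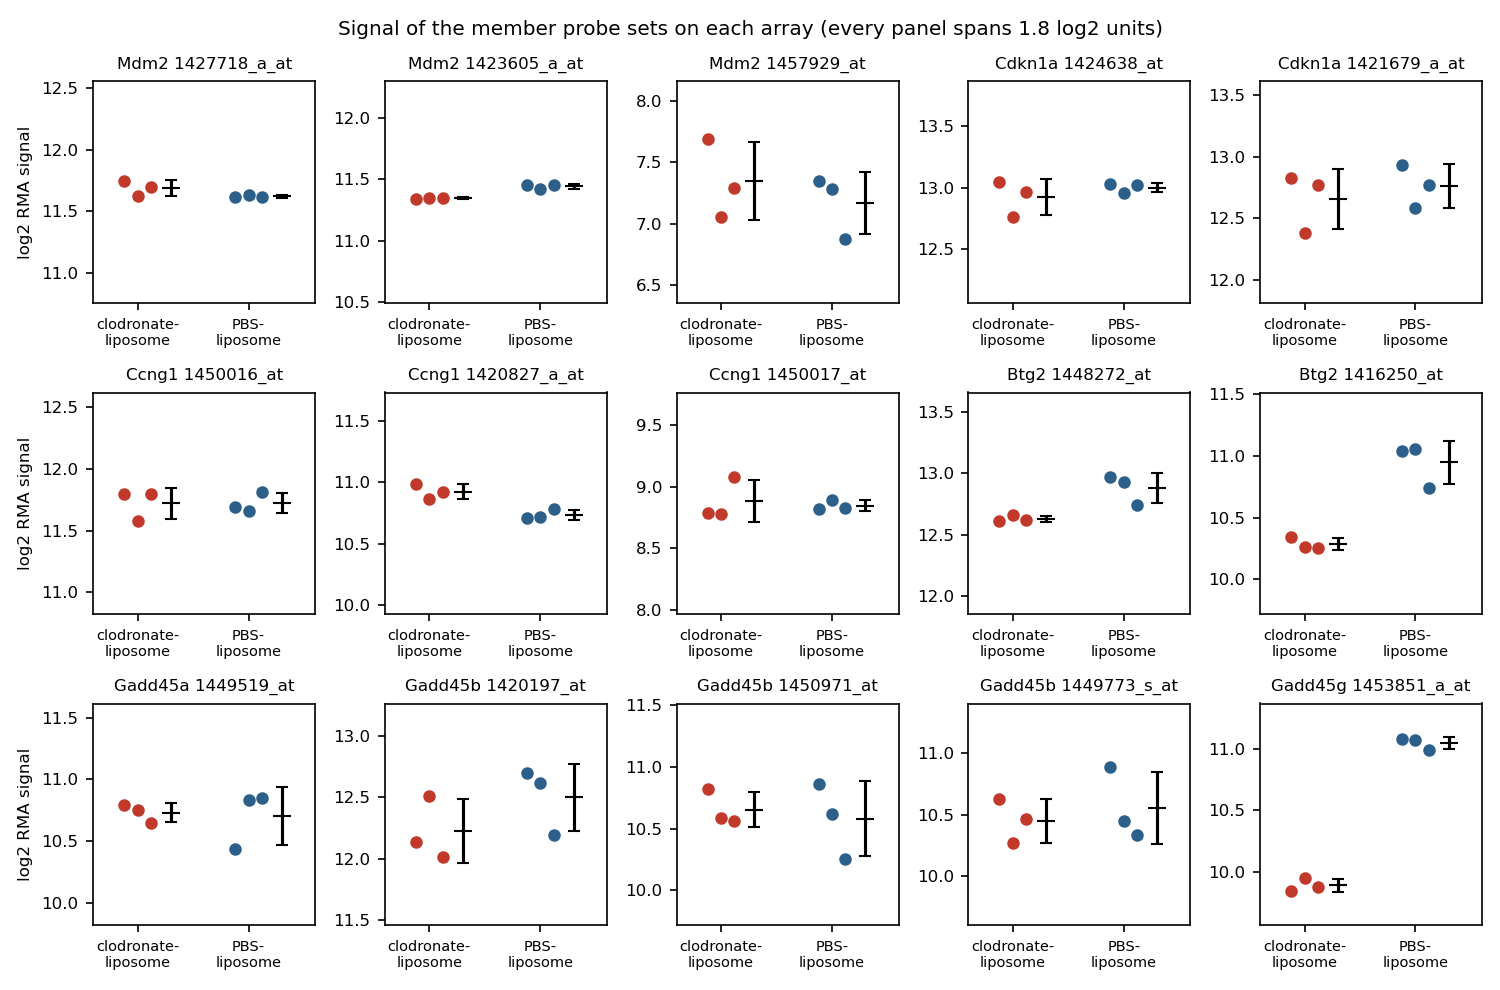
Log2 RMA signal (vertical axes, 1.8 log2 units in every panel) of the 15 member probe sets on the 3 clodronate-liposome arrays (red, left) and the 3 PBS-liposome arrays (blue, right), each dot an array in replicate order and black marks the mean ± SD. Gadd45g read 9.85 to 9.95 on clodronate-liposome and 10.99 to 11.07 on PBS-liposome arrays. Both Btg2 probe sets and Mdm2 1423605_a_at were also separated as lower, and Ccng1 1420827_a_at as higher. Gadd45a, Gadd45b, Cdkn1a and the other Mdm2 and Ccng1 probe sets overlapped.

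The sequences upstream of the start sites of the Gadd45 genes are shown to set the picked gene beside its 2 relatives. Each run holds the 250 bases before the annotated start site, 5′ to 3′ on the gene's own strand, from RefSeq on build GRCm38.p6, with motif matches in capitals. They lie at chr13:51846425-51846674 (plus strand) for Gadd45g, chr6:67037408-67037657 (minus strand) for Gadd45a and chr10:80929841-80930090 (plus strand) for Gadd45b.
Gadd45g: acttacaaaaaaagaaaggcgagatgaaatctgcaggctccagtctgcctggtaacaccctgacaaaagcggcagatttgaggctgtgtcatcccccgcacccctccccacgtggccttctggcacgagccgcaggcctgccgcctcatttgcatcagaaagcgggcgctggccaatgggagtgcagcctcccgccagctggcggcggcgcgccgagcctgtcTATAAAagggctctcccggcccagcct
Gadd45a: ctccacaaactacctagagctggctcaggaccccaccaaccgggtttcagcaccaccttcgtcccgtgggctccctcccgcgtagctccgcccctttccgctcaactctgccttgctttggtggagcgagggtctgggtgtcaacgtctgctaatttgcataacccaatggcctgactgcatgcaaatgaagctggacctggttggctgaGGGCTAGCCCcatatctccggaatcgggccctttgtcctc
Gadd45b: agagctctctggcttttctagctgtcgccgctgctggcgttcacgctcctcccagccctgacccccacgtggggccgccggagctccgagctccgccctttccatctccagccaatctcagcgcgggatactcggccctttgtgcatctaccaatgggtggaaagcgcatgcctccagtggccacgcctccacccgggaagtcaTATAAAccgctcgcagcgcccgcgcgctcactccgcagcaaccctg
The capitals mark matches to the core promoter motif TATAAA in Gadd45g (27 bases before the start) and in Gadd45b (46 bases before), and a match to the p53 consensus half-site, GGGCTAGCCC, in Gadd45a (40 bases before).

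Of the p53 targets among the members, Btg2 was lower on every clodronate-liposome array in both of its probe sets, without passing the threshold, and the brightest probe sets of Cdkn1a and Ccng1 gave overlapping groups. Btg2 encodes an antiproliferative protein that promotes shortening of mRNA tails, and it is also an early response gene. Its probe set 1416250_at read 10.34, 10.26 and 10.25 in clodronate-liposome ECs, against 11.04, 11.06 and 10.74 in PBS-liposome ECs. The log2 difference was -0.66 (SE 0.11, 95% interval -0.93 to -0.40), or 1.58-fold lower (limma adjusted p = 0.0781). The second and brighter probe set, 1448272_at, read 12.61, 12.66 and 12.62 in clodronate-liposome ECs, against 12.97, 12.93 and 12.74 in PBS-liposome ECs. Its difference was smaller, -0.25 (SE 0.100, adjusted p = 0.418). PBS-liposome replicate 3 was the lowest of its group in both. With a trended and robust variance, 1416250_at passed (adjusted p = 0.0445), and with 1 array left out its adjusted p ranged from 0.100 to 0.255.

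Cdkn1a, the p21 gene, read 13.05, 12.77 and 12.96 in clodronate-liposome ECs, against 13.03, 12.96 and 13.02 in PBS-liposome ECs (1424638_at). Clodronate-liposome replicate 2 was the lowest array and the others lay within a narrow range. The difference was -0.08 (95% interval -0.32 to 0.17, adjusted p = 0.865), and the second probe set, 1421679_a_at, gave -0.11 (95% interval -0.45 to 0.24). Without clodronate-liposome replicate 2 both were slightly above 0.

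Ccng1, which encodes cyclin G1, a partner of the phosphatase PP2A that acts on MDM2, differed by 0.0027 to 0.19 over its probe sets. Its brightest probe set, 1450016_at, read 11.79, 11.58 and 11.80 in clodronate-liposome ECs, against 11.69, 11.66 and 11.81 in PBS-liposome ECs, a difference of 0.0027 (95% interval -0.24 to 0.25). Probe set 1420827_a_at was higher on every clodronate-liposome array, with 10.98, 10.86 and 10.92 in clodronate-liposome ECs, against 10.71, 10.71 and 10.78 in PBS-liposome ECs. That difference, 0.19 (SE 0.091), did not pass (limma adjusted p = 0.519), and the dimmest probe set, 1450017_at, differed by 0.04.

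Mdm2, the feedback inhibitor of p53, split in sign by probe set. The brightest, 1427718_a_at, read 11.75, 11.62 and 11.69 in clodronate-liposome ECs, against 11.62, 11.63 and 11.62 in PBS-liposome ECs, with overlap through clodronate-liposome replicate 2 and a difference of 0.07 (95% interval -0.14 to 0.27, adjusted p = 0.865). Probe set 1423605_a_at was lower on every clodronate-liposome array, with 11.34, 11.35 and 11.35 in clodronate-liposome ECs, against 11.45, 11.42 and 11.45 in PBS-liposome ECs, with a log2 difference of -0.095 (adjusted p = 0.773). The third, 1457929_at, lay below the array median of 8.13 on all arrays and differed by 0.18 (SE 0.19).

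Taking all members but Gadd45g, 0 of 14 probe sets passed a limma adjusted p of 0.05, where 0.306% of all 45037 probe sets did, and 2 of 14, both of Btg2, had an unadjusted p under 0.05, where 10.8% of all probe sets did. The 95% intervals reached 0.20 to 0.43 to either side of the difference, so smaller differences could not be resolved with 3 arrays per group. Groups did not overlap in 4 of the 14 (28.6%, 3 lower and 1 higher), against 16% of all probe sets (8.04% lower and 7.97% higher). Probe sets of 1 gene share transcripts, so the 14 are not independent. Their mean was lower in 7 and higher in 7, with a median log2 difference of -0.037 beside -0.00014 over all probe sets.

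**Figure D2:**
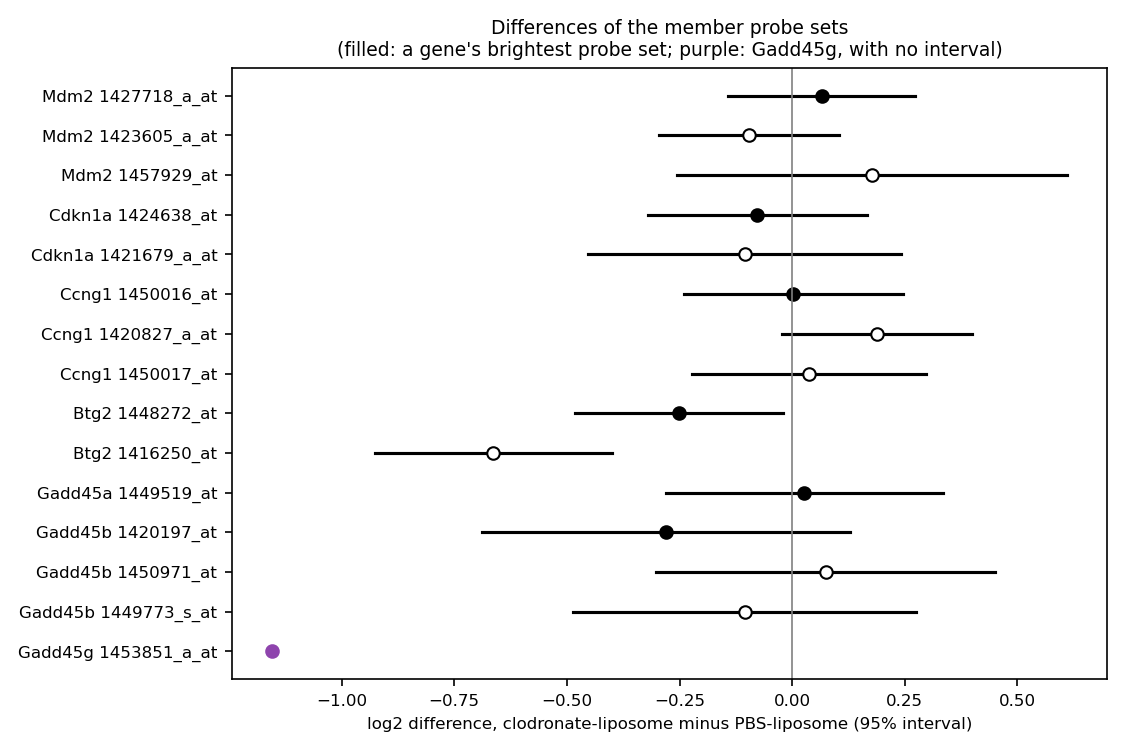
Log2 difference, clodronate-liposome minus PBS-liposome (horizontal axis), of the 15 member probe sets with the 95% interval from limma, filled dots marking the brightest probe set of a gene. Gadd45g (purple, drawn with no interval) lay at -1.16, Btg2 at -0.66 and -0.25, and the intervals of the other 12 crossed 0.

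Upstream sequences of Btg2 and Cdkn1a are shown as those of a p53 target with lower values and of one whose groups overlapped. They lie at chr1:134079156-134079405 (minus strand) for Btg2 and chr17:29090729-29090978 (plus strand) for the first of 2 annotated Cdkn1a start sites, again from RefSeq on GRCm38.p6.
Btg2: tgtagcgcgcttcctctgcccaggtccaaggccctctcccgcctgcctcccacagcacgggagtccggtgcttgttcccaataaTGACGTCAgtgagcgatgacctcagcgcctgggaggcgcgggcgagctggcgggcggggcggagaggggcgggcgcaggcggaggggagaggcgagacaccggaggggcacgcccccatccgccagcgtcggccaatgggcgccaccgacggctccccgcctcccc
Cdkn1a: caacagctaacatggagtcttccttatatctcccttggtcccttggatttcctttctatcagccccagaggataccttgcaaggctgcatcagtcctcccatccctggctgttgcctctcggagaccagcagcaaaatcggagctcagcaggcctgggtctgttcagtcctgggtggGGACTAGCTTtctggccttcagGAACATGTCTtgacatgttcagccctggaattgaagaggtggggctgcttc
In Btg2 the capitals mark a cAMP response element, TGACGTCA, 166 bases before the start. In Cdkn1a they mark 2 matches to the p53 half-site, GGACTAGCTT at 73 and GAACATGTCT at 51 bases before the start. Mdm2 (GAACTTGCCT, 186 bases before) and Ccng1 (GGGCAAGCCT, 185 bases before) held 1 such match each, and the second Cdkn1a start site held none. Windows of the same length were searched on both strands in 32851 RefSeq promoters, of which 7.13% held the p53 half-site, 12.4% TATAAA and 1.55% TGACGTCA. The AP-1 motif TGANTCA (6.75% of promoters), the interferon-gamma activated site TTCNNNGAA (7.02%), the serum response element (1.47%) and the NF-kB motif (3.9%) had no match in the windows of the 7 genes. No 2 matches overlapped. A match describes letters only, and its absence says nothing about sites elsewhere.

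The wider p53 pathway was read from lists of targets, upstream regulators, GADD45 partners and related families, with each gene represented by its brightest probe set. Of 69 genes listed, 62 were measured, and 0 passed the limma threshold, where 0.434% of all 18193 genes did. At an unadjusted p under 0.05, 14 of the 62 were found, where 10% of all genes were. Groups did not overlap in 24.2% of them (7 lower, 8 higher), against 16.2% of all genes, and their median difference was 0.026, against -0.0031 over all genes. Directions were mixed within every list of more than 2 genes.

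Among p53 targets that act on cell cycle and growth, 9 of 15 were lower and 6 higher in mean (median -0.051). Zmat3, an RNA-binding protein gene, read 11.68, 11.42 and 11.58 in clodronate-liposome ECs, against 11.04, 10.82 and 10.91 in PBS-liposome ECs. It lay higher on every clodronate-liposome array, by 0.63 (SE 0.11, adjusted p = 0.0816). Ddit4, an inhibitor of mTOR signaling induced by stress, lay at the other end with -0.64 (SE 0.15, adjusted p = 0.170), followed by the kinase gene Plk3 with -0.34 and, on the upper side, the sestrin gene Sesn1 with 0.16. Targets of the cell death group had a median of 0.032 over 11 genes. The ectodysplasin receptor gene Eda2r differed by 0.64 (adjusted p = 0.359), or by 0.38 without PBS-liposome replicate 1, and the membrane protein gene Perp by 0.45, while Pmaip1, which encodes the BH3-only protein NOXA, differed by -0.38 and the death receptor gene Tnfrsf10b by -0.23. Perp read 6.14 to 7.40, below the array median of 8.13 on all arrays. Targets of DNA repair and metabolism had a median of 0.048 over 8 genes, with the epoxide hydrolase gene Ephx1 at 0.42 and the repair gene Xpc at 0.19, and with Tigar at -0.14 and Rrm2b at -0.06.

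Genes that control p53 were higher in mean in 9 of 12 and lower in 3, with a median of 0.11. The damage-activated kinase gene Chek2 differed by 0.64 (SE 0.22, limma adjusted p = 0.335), or by 0.38 without PBS-liposome replicate 1, the lowest array at 8.46. Cdkn2a, whose products include the MDM2 antagonist ARF, differed by 0.55 (limma adjusted p = 0.367). Usp7, which removes ubiquitin from p53 and MDM2, lay at -0.14 and the kinase gene Atm at -0.10. Of the GADD45 partner list 5 genes were measured, and none had an adjusted p below 0.586. The upstream kinase gene Map3k4 lay at 0.16, Cdk1 at 0.05, Gadd45gip1 at -0.02 and Mapk14, the p38 kinase gene, at -0.15.

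Of the 7 CDK inhibitor genes, Cdkn2d had the lowest difference. It read 11.02, 10.92 and 10.89 in clodronate-liposome ECs, against 11.58, 11.49 and 11.43 in PBS-liposome ECs. These groups did not overlap, and the difference of -0.56 (SE 0.096) missed the threshold (adjusted p = 0.0781). Cdkn2b differed by -0.38, Cdkn2c by 0.16 and Cdkn2a, named above among the genes that control p53, by 0.55. Ccng2, the sister of Ccng1, differed by 0.54 (SE 0.13, adjusted p = 0.174) and was higher on every clodronate-liposome array in both of its probe sets. In the BTG/TOB family, to which Btg2 belongs, Tob1 lay at 0.28, Btg4 at 0.15 and Btg1 at -0.12, and the p53 relatives Trp63 and Trp73 at -0.20 and -0.05. Dimmer probe sets departed from these values for Btg1 (-0.59), Usp7 (0.55), Rrm2b (0.46), Mapk14 (0.21) and Trp73 (0.10). The brightest probe sets of Btg4 (7.04 to 7.40) and Trp63 (7.32 to 8.07) lay below the array median of 8.13 on all arrays. That of Trp73 read 7.57 to 8.26.

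**Figure D3:**
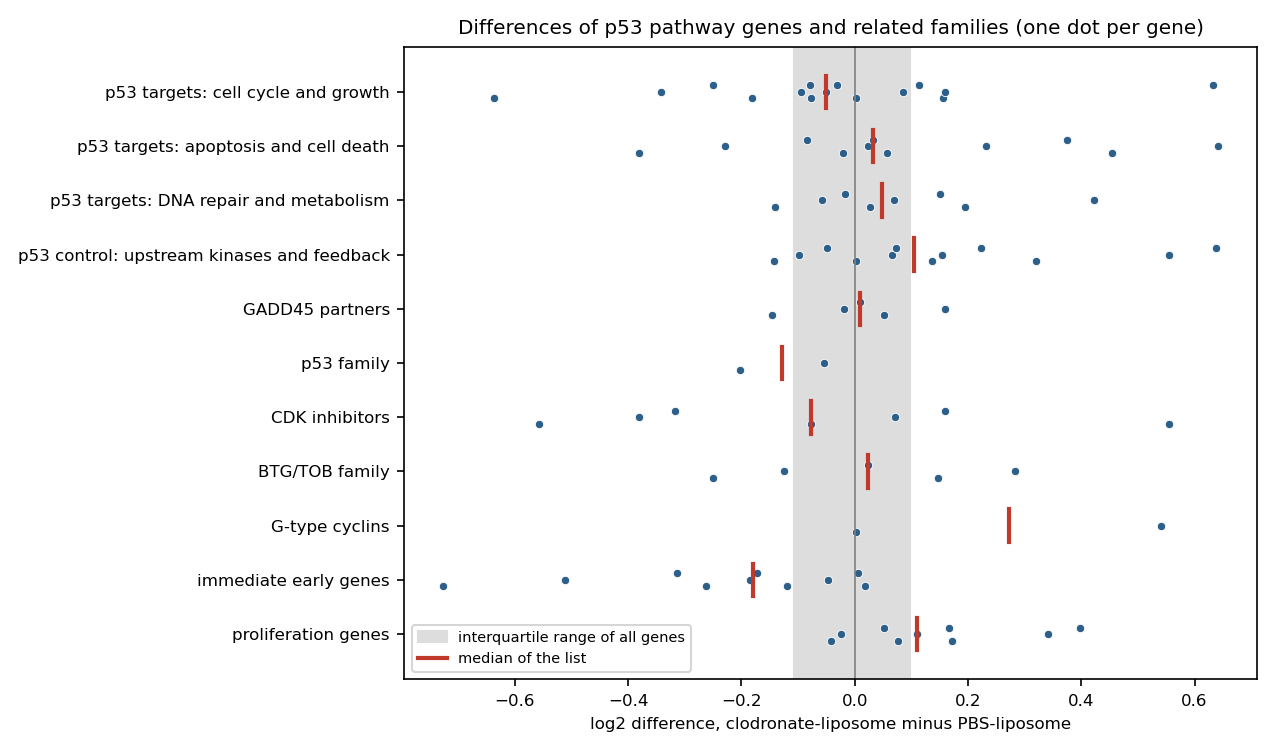
Log2 difference, clodronate-liposome minus PBS-liposome (horizontal axis), of the genes of each list, one dot per gene by its brightest probe set, with the list's median in red and the interquartile range of all 18193 genes in grey. Medians ran from -0.18 for immediate early genes to 0.27 for the 2 G-type cyclins, and the lists hold genes on both sides of 0 except for the p53 family and the G-type cyclins.

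Immediate early genes, which cells transcribe within minutes of a stimulus, were set beside Btg2, Gadd45b and Gadd45g because these are induced in the same early phase. Of 10 measured, 8 were lower and 2 higher in mean, with a median of -0.18. Atf3, a stress-induced transcription factor gene, fell by 0.73 on the log2 scale (SE 0.11, limma adjusted p = 0.0454) and was the only member of this list to pass, where 0.346% of all genes passed as lower. Atf3 read 12.11, 12.12 and 12.22 in clodronate-liposome ECs, against 13.00, 12.89 and 12.73 in PBS-liposome ECs. With any 1 array left out its adjusted p was 0.0968 to 0.173, and with the replicate number as a block 0.128. Ier2 lay at -0.51 (adjusted p = 0.220), Jun at 0.01 and Dusp1 at 0.02. Handling of tissue during digestion and sorting also induces these genes in general, and its part in the result was not tested. Proliferation genes had a median of 0.11 over 9 genes and 0 past the threshold, with summed signals of 28400 to 33500 in clodronate-liposome and 18100 to 36200 in PBS-liposome ECs. The low end of the PBS-liposome range was replicate 1, in which the list's mean z-score was -1.84.

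The gene profiles most like that of Gadd45g were found by centring each gene on its mean over the 6 arrays and taking the root mean square distance between profiles, over 18192 other genes. The closest were Fndc1 (distance 0.068 on the log2 scale), which encodes a protein with fibronectin domains, Igtp (0.080) and Irgm1 (0.081), both GTPase genes, the transporter gene Abcc3 (0.094) and Cd274 (0.12), the gene of PD-L1. Their log2 differences were -1.12, -1.20, -1.03, -1.26 and -1.10, beside -1.16 for Gadd45g. The measure follows the group difference that Gadd45g was picked for, and no test was made on it.

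**Figure D4:**
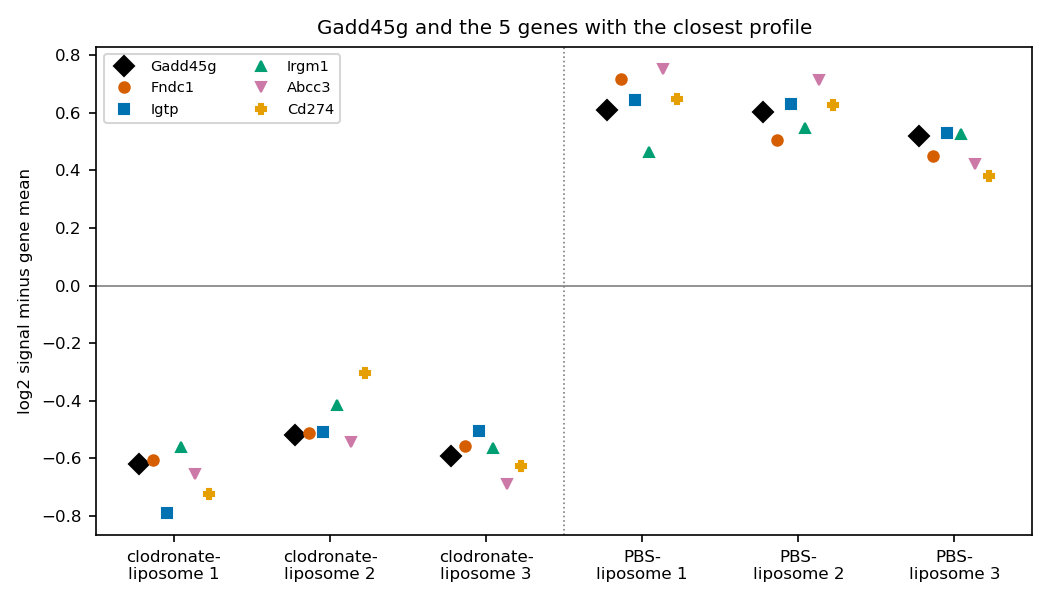
Log2 signal minus the gene's mean over 6 arrays (vertical axis) on each clodronate-liposome array (left) and PBS-liposome array (right) for Gadd45g (black diamonds) and the 5 genes with the closest profile. Gadd45g lay at -0.62, -0.52 and -0.59 on the clodronate-liposome arrays and at 0.61, 0.60 and 0.52 on the PBS-liposome arrays.

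The labelled cell type was checked with 8 endothelial markers, including Pecam1 and Cdh5, which read 11.73 to 14.08 over all arrays, with differences of -0.03 to 0.12. No marker of another cell type passed the threshold. Leukocyte, macrophage, stromal and platelet markers were mostly lower in mean, as Gadd45g and Btg2 were, whereas all 4 neutrophil and all 4 mesothelial markers were higher and the 6 epithelial markers were split. All 5 pan-leukocyte genes were lower in mean, with a median of -0.41 and summed signals of 1220 to 1550 in clodronate-liposome and 1490 to 2140 in PBS-liposome ECs. Of 9 macrophage genes 7 were lower (median -0.083, sums 3320 to 4670 in clodronate-liposome and 3490 to 5230 in PBS-liposome ECs), with Csf1r at -0.65 (adjusted p = 0.101) and Adgre1 at -0.17. The 2 higher were Fcgr1 at 0.32 and Mrc1 at 0.05. Adgre1 read 6.94 to 7.85, below the array median of 8.13 on all arrays. For reference, 13 genes of other organs read 6.02 to 10.57, with differences of -0.64 to 0.16. All 6 fibroblast and mural genes were lower (median -0.21, sums 5810 to 8800 in clodronate-liposome and 8160 to 9070 in PBS-liposome ECs). RMA signals have no zero, so absence of a marker cannot be read from them, and in sorted bulk samples fewer cells of a type and less RNA per cell cannot be told apart. The part of these cells in the Gadd45g and Btg2 values was not tested. Control probe sets set clodronate-liposome replicates 1 and 3 apart, with hybridization controls at 11.91 and 11.94, against 12.11 to 12.24 on the other 4 arrays, and 18S ribosomal RNA controls at 13.01 and 13.00, against 12.33 to 12.63. The array weights estimated by limma ranked the treated arrays otherwise. Clodronate-liposome replicate 2 had the lowest weight of the 6 arrays (0.607) and replicate 3 the highest (1.84). With replicates 1 and 3 left out, replicate 2 alone stood for clodronate-liposome treatment. The difference was then -1.10 for Gadd45g, which is a description of the value it was picked for, and -0.69 for Btg2 (1416250_at, adjusted p = 0.465), and 0 probe sets passed limma over the whole array (3964 at an unadjusted p under 0.05). The part of array quality in these values was not tested.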

How the data were processed

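RNA of sorted lung ECs was hybridized to Affymetrix GeneChip mouse arrays, 3 per group. The deposited table held log2 signals, which the authors had computed from the scanner files by RMA (background correction, quantile normalization and summary of probes per probe set). These were used as deposited. Of 45101 probe sets, 64 manufacturer controls were set aside and 45037 tested irrespective of signal. The platform annotation gave 1 symbol to 34945 of them. A gene in a list was represented by its brightest probe set over all arrays, and all probe sets are given for the members. Groups were compared (clodronate-liposome minus PBS-liposome) in R 4.3.3 by the two-sided moderated test of limma 3.58.1, with no covariate. Benjamini-Hochberg adjustment was made over 45037 probe sets. The study's methods name an empirical Bayes comparison between groups with the same adjustment. The threshold of 0.05 was set here. For genes lower in this contrast the study used a looser limit on the false discovery rate, with a cut on the size of the difference. There were 4 residual degrees of freedom. An exact permutation test of 3 arrays against 3 cannot go below p = 0.1. P values set the group difference against the spread between these samples only, which limma moderates over all probe sets. The number of arrays limits the precision.

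Members and lists were chosen with earlier results of these data known. Named list genes were those past the threshold plus the 2 highest and 2 lowest differences of each list. Alternatives were a filter on the dimmest 40% of probe sets, median centring, a second quantile normalization, array weights, a trended and robust variance, a block for the replicate number, the mean of a gene's probe sets, each array left out in turn and, added after the data had been seen, clodronate-liposome replicates 1 and 3 left out. The fit was also run on simulated data with known changes, whose recovery is not reported here. The arrays' files gave no coordinates, and those printed belong to the RefSeq promoter table (GRCm38.p6), in which all 7 measured members were found.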

Additional observations from a re-analysis of the deposited data

How the results depend on the processing

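The count of probe sets past the threshold over the whole array was 138. It was 248 with a trended and robust variance, 234 with array weights, 196 without the dimmest 40%, 6 to 73 with any 1 array left out, and 0 with the replicate number as a block (smallest adjusted p = 0.0507, 5033 at an unadjusted p under 0.05). Among members other than Gadd45g the count was 0, and 1 (Btg2) with a trended and robust variance. Among the pathway and family lists it was 0, and 2 (Zmat3 and Cdkn2d) with a trended and robust variance or with the mean of a gene's probe sets, and 1 (Zmat3) with array weights. The causes were not tested. With clodronate-liposome replicates 1 and 3 left out, chosen after seeing the data, 0 probe sets passed over the whole array (3964 at an unadjusted p under 0.05), and the lone array is assumed to vary like the other group.

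Values near 0 changed sign in some settings. With 1 array left out, Ccng1 ranged from -0.034 to 0.075 (1450016_at) and from -0.062 to 0.089 (1450017_at), Gadd45a from -0.11 to 0.10, Gadd45b from -0.088 to 0.22 (1450971_at) and from -0.22 to 0.059 (1449773_s_at), Cdkn1a from -0.14 to 0.0021 (1424638_at) and from -0.20 to 0.034 (1421679_a_at), Trp73 from -0.22 to 0.13, Jun from -0.068 to 0.11, Dusp1 from -0.0074 to 0.060, Cdk1 from -0.27 to 0.26, Cdkn2c from -0.017 to 0.35 and Gadd45gip1 from -0.11 to 0.15. Of 48 single values, these 13 changed sign, and 19 others kept it but moved by over 1.5 times: Mdm2 ranged from 0.036 to 0.099 (1427718_a_at) and from 0.0072 to 0.32 (1457929_at), Gadd45b from -0.43 to -0.17 (1420197_at), Eda2r from 0.38 to 0.78, Chek2 from 0.38 to 0.85, Perp from 0.24 to 0.67, Ephx1 from 0.26 to 0.54, Cdkn2b from -0.55 to -0.22, Tob1 from 0.15 to 0.45, Xpc from 0.10 to 0.34, Usp7 from -0.37 to -0.027 and Tigar from -0.31 to -0.031, beside Tnfrsf10b, Trp63, Btg1, Atm, Rrm2b, Btg4 and Sesn1. With array weights Gadd45a was at -0.032 and Gadd45gip1 at 0.020. With clodronate-liposome replicates 1 and 3 left out, Mdm2 was at -0.00033 (1427718_a_at) and -0.11 (1457929_at), Ccng1 at -0.14 (1450016_at) and -0.067 (1450017_at), Gadd45b at 0.012 (1420197_at), Usp7 at 0.31, Btg1 at 0.054, Rrm2b at 0.0052, Trp73 at 0.28, Jun at -0.20 and Cdk1 at -0.031.

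Same-numbered arrays of both groups deviated from their group means with correlations of 0.075, 0.070 and 0.036 over 45037 probe sets. Arrays with different numbers gave -0.058 to -0.0065, so each array correlated best with its own number, though weakly. Whether the numbers mark pairs was not tested, and the labels do not say. With the replicate number as a block, the count past the threshold stayed at 0 among the members other than Gadd45g and the pathway and family lists, those at an unadjusted p under 0.05 were 1 in place of 2 and 12 in place of 14, and Atf3 lost its call (adjusted p = 0.128).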
